A study of Mus musculus with 12 samples.

Results

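The enzymes and transporters that break glucose down to pyruvate and lactate, and those that rebuild glucose from smaller molecules, were followed in mouse kidney by RNA-seq. The set held 34 genes, taken by name from a list of glycolysis and gluconeogenesis genes. All 34 were among the 24062 genes of the deposited count table, and all 34 passed the filter on low counts that left 14970 genes for testing. The kidneys came from 12 adult mice of a Pkd1 model of polycystic kidney disease, with 3 libraries in each of 4 groups that combine Cre status (CrePlus or CreMinus) with surgery (UNx or sham). All 12 mice carried the Pkd1 model and were induced with tamoxifen at an age of 6 to 8 weeks. CrePlus mice carried Cre and CreMinus mice did not. UNx mice lost 1 kidney (unilateral nephrectomy), sham mice kept both, and the kidney was taken 4 weeks after surgery. The title of sham CrePlus replicate 1 holds a group name where the other titles hold a further number after the library number. That title thus does not identify its mouse. The labels name neither the promoter of Cre nor the part of Pkd1 that it deletes, so they do not show which kidney cells lose the gene.

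Glycolysis splits glucose into pyruvate, which is reduced to lactate or carried into mitochondria and burned. Gluconeogenesis runs many of the same reactions backwards and replaces the irreversible ones with its own enzymes. The kidney does both in different cells: the proximal tubule makes glucose from lactate and amino acids and relies little on glycolysis, whereas distal segments and the medulla burn glucose. Cells of cystic tubules have been described as more glycolytic, and hypoxia-inducible factors and Myc are known activators of many of these genes.

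Libraries were of unequal depth: 8 held between 18914300 and 22480895 counts, and 4 between 41699032 and 42785476. The deep ones were UNx CreMinus replicate 1 and all of UNx CrePlus. Reads of Xist and of Y-linked genes marked 5 libraries as male: replicate 3 of sham CreMinus, replicate 3 of sham CrePlus, replicate 1 of UNx CreMinus and replicates 1 and 2 of UNx CrePlus. The other 7 were female. Pkd1 itself lay between 57.8 and 76.8 CPM (counts scaled to a common library size) in sham CreMinus libraries, 45.9 and 64.1 in sham CrePlus, 49.3 and 71.6 in UNx CreMinus and 39.6 and 45.5 in UNx CrePlus. CrePlus overlapped with CreMinus in sham kidneys and lay below it in UNx kidneys, and reads outside the deleted part do not measure the deletion. Kidney markers were present in every library, among them all 12 listed proximal tubule genes. Their summed level was 20850 to 22880 CPM in the other libraries and 18680, 18030 and 20490 CPM in UNx CrePlus replicates 1, 2 and 3. In these UNx CrePlus libraries, loop and distal tubule markers summed to 7564, 8113 and 11350 CPM, against 8866 to 12770 CPM elsewhere. Cell cycle markers summed there to 291, 321.8 and 130.4 CPM, against 97.54 to 174.4 CPM elsewhere. Mean log2 levels of tubular injury markers, relative to the mean of all libraries, were highest in UNx CrePlus replicate 1 (1.39), sham CrePlus replicate 1 (1.08) and UNx CrePlus replicate 2 (0.84). In these bulk samples, fewer cells of a type and less RNA per cell cannot be told apart.

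Levels between genes were compared as CPM per kilobase of exon. Ldhb, whose subunits favour the turning of lactate into pyruvate, was the highest of the 34 at 1040 CPM per kilobase as a mean over the 12 libraries. Fbp1, the fructose-1,6-bisphosphatase of gluconeogenesis, followed at 725, and Pck1, the cytosolic enzyme that commits oxaloacetate to glucose synthesis, at 513. Of the aldolases among the 34, Aldoa stood at 231 and Aldoc at 4.02, and the phosphofructokinases Pfkm, Pfkl and Pfkp at 24.3, 11.8 and 5.02 CPM per kilobase. Hk1 was at 16.9 and Hk2 at 0.174, the lowest of the set, and Eno2, Pfkfb1 and Slc16a3, the lactate exporter of strongly glycolytic cells, were at 0.358, 0.291 and 0.199. Gene models set these lengths, so a gene with several isoforms is only placed roughly.

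Ldhb and Gapdh were among the members that varied least. Ldhb was at 1660, 1590 and 1550 CPM in sham CreMinus replicates 1 to 3, 1570, 1860 and 1550 in sham CrePlus, 1650, 1810 and 1620 in UNx CreMinus and 1510, 1440 and 1830 in UNx CrePlus. Gapdh, the step that yields NADH, was at 895, 853 and 951 CPM in sham CreMinus, 927, 918 and 957 in sham CrePlus, 1060, 1090 and 881 in UNx CreMinus and 954, 945 and 993 in UNx CrePlus. In both genes all 4 groups overlapped. The ratio of the highest to the lowest of the 12 libraries was 1.29 for Ldhb and 1.28 for Gapdh, and the smallest was 1.23 for Gpi1. It was 1.87 for Pck1. At the other end stood Hk2 with 9.98, Fbp2 with 4.09, Aldoc with 2.94 and Pdk3 with 2.41. The plot of the 34 genes by library shows these 4 as the rows with the deepest colours.

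**Figure D1:**
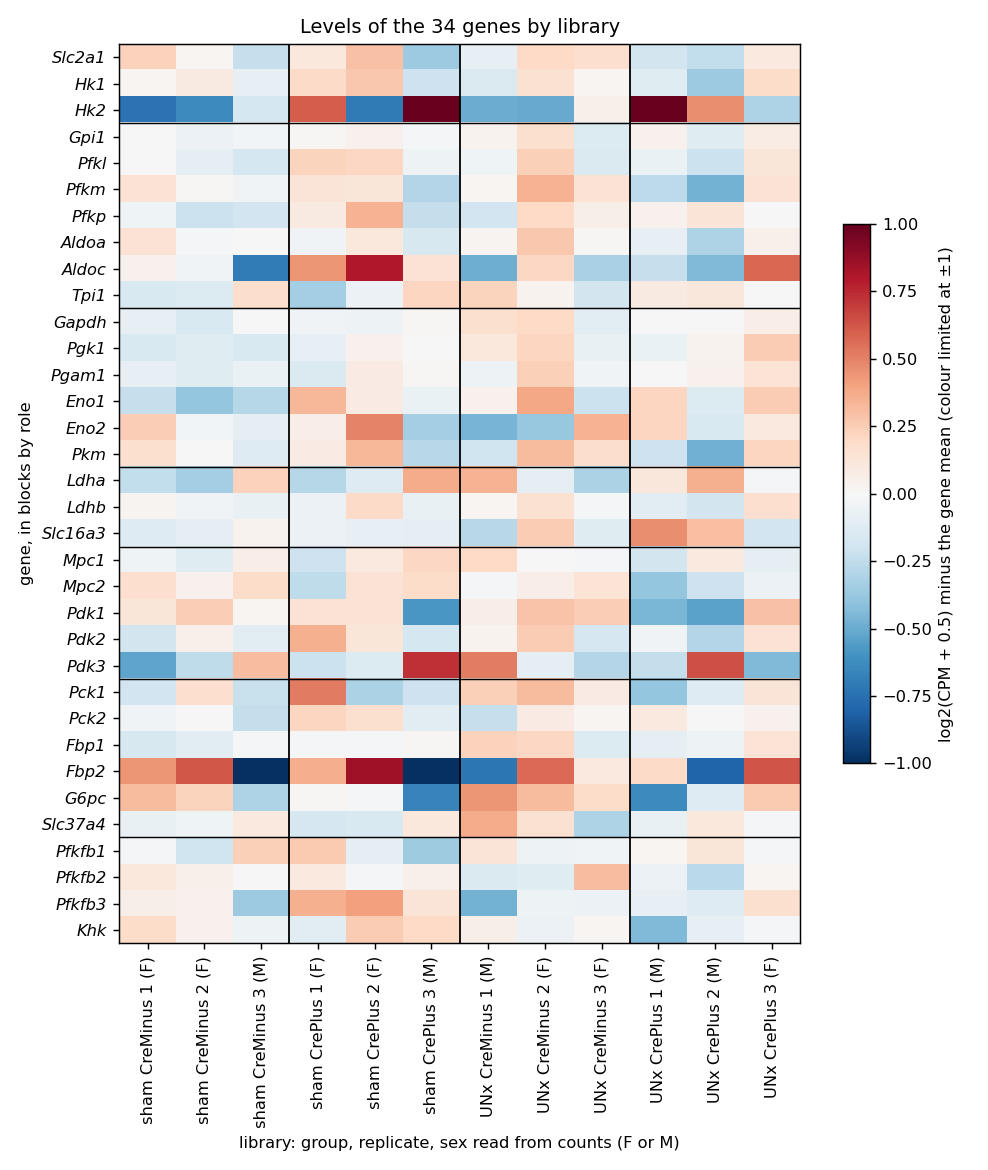
Heatmap of the 34 genes (rows, in blocks by role) in the 12 libraries (columns, with the sex read from counts). Colour gives log2(CPM + 0.5) minus the gene's mean over libraries, limited at 1 on either side. Hk2, Fbp2, Aldoc and Pdk3 spread most, while Gpi1, Gapdh and Ldhb stay close to their means.

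Cre was compared in sham kidneys first, which addresses what differs with Cre where no kidney was removed. None of the 34 genes passed edgeR's quasi-likelihood test at an adjusted p under 0.05 (lowest adjusted p = 1), in a comparison that called 0.0267% of all genes. With DESeq2 the count was also 0. At an unadjusted p under 0.05 stood 4 of the 34, Eno1, Hk2, Pfkfb3 and Aldoc, against 4.05% of all genes. The log2 fold change was above 0 in 24 and below 0 in 10 members, with a median of 0.07, and 50.4% of all genes were above 0. In Eno1, Pfkfb3, Aldoc and Pgk1 all 3 CrePlus libraries lay above all 3 CreMinus libraries, against 4.66% of all genes that did so and 8.16% that did not overlap in either direction.

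At the entry of glucose, Hk2 encodes the hexokinase that insulin, hypoxia and growth signals raise, and Hk1 the hexokinase found in most cells. Hk2 was at 0.317, 0.376 and 0.701 CPM in sham CreMinus replicates 1 to 3, 1.57, 0.335 and 3.16 in sham CrePlus, 0.463, 0.460 and 0.912 in UNx CreMinus and 2.23, 1.38 and 0.595 in UNx CrePlus. Replicates 1 and 3 of sham CrePlus and 1 and 2 of UNx CrePlus were high, and 1 CrePlus library of each surgery lay within the CreMinus range. By Cre, the log2 fold change of Hk2 was 1.85 ± 0.74 (SE) for sham and 1.22 ± 0.70 for UNx kidneys (adjusted p = 1 and 0.574), and 1.53 ± 0.51 averaged over surgery (adjusted p = 0.273). Adipocyte markers, which include fat-cell hormones, summed to 117 CPM in sham CrePlus replicate 3, where Hk2 was highest, and to 34.6 to 92.0 CPM elsewhere. Only 3 of the 7 listed adipocyte genes passed the filter on low counts. Hk2 was also high in sham CrePlus replicate 1 and UNx CrePlus replicates 1 and 2, where the sums were 34.88, 50.25 and 92.01 CPM. These libraries had mean log2 injury marker levels of 1.08, 1.39 and 0.84, against -0.54 in sham CrePlus replicate 3. The part of either marker list in the Hk2 values was not tested. In females alone, with 1 UNx CrePlus library left, the log2 fold change of Hk2 in UNx kidneys was -0.18. Hk1 was at 145, 152 and 135 CPM in sham CreMinus, 163, 172 and 124 in sham CrePlus, 129, 159 and 145 in UNx CreMinus and 131, 111 and 162 in UNx CrePlus, with all groups overlapping. Slc2a1, the glucose transporter of the basolateral membrane, had group means from 52.8 to 60.8 CPM.

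In upper glycolysis, where glucose 6-phosphate is turned into triose phosphates, Aldoc was the member with the largest value for Cre in sham kidneys. Aldoc was at 12.9, 12.2 and 7.53 CPM in sham CreMinus replicates 1 to 3, 17.2, 22.1 and 13.9 in sham CrePlus, 8.77, 14.5 and 9.88 in UNx CreMinus and 10.6, 9.06 and 18.9 in UNx CrePlus. All sham CrePlus libraries were above all sham CreMinus libraries, and the UNx groups overlapped. The CrePlus minus CreMinus difference was 0.71 ± 0.32 on the log2 scale in sham and 0.22 ± 0.31 in UNx kidneys (adjusted p = 1 and 0.846). Without UNx CrePlus replicate 3 the UNx value was -0.16. The liver-type phosphofructokinase Pfkl was at 78.4, 72.8 and 68.9 CPM in sham CreMinus, 91.1, 90.1 and 75.3 in sham CrePlus, 75.8, 92.0 and 70.5 in UNx CreMinus and 74.6, 67.0 and 84.8 in UNx CrePlus. The muscle-type Pfkm was at 81.0, 102 and 88.3 CPM in UNx CreMinus and 66.6, 57.7 and 88.7 in UNx CrePlus, and at 88.7, 80.5 and 78.3 in sham CreMinus and 87.5, 87.2 and 65.2 in sham CrePlus. Both genes overlapped between the groups, and neither passed. Aldoa was at 942, 846 and 850 CPM in sham CreMinus, 835, 917 and 765 in sham CrePlus, 869, 1030 and 862 in UNx CreMinus and 807, 688 and 882 in UNx CrePlus, also with overlap. Group means ran from 506 to 527 CPM for Gpi1, from 60.2 to 70.8 for the platelet-type Pfkp and from 808 to 875 for the triose phosphate isomerase Tpi1.

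In lower glycolysis, where triose phosphates become pyruvate and ATP is made, Eno1 encodes the enolase of most tissues. Eno1 was at 36.8, 33.0 and 35.4 CPM in sham CreMinus replicates 1 to 3, 54.5, 45.7 and 41.3 in sham CrePlus, 44.6, 56.6 and 37.2 in UNx CreMinus and 50.2, 39.2 and 51.5 in UNx CrePlus. The sham CreMinus libraries were the lowest group, below every sham CrePlus and every UNx CreMinus library. The log2 fold change was 0.43 ± 0.16 for Cre in sham kidneys (adjusted p = 1), and the authors' deposited table for this comparison gives Eno1 a log2 fold change of 0.35 with an adjusted p of 0.551. A second version of the authors' deposited table, with 2 CrePlus columns, gives 0.29 with an adjusted p of 0.813. Eno1 is uncertain, because Eno1b, a near-identical intronless copy, had a higher mean count of 82.7 CPM against 43.8 for Eno1, and short reads can be split between the copies. With both summed, the value for Cre in sham kidneys was 0.22 ± 0.25. Pgk1, which makes the first ATP of the pathway, was at 760, 778 and 762 CPM in sham CreMinus, 801, 872 and 846 in sham CrePlus, 908, 980 and 804 in UNx CreMinus and 807, 868 and 1010 in UNx CrePlus. Its sham CreMinus libraries were again below those of sham CrePlus and UNx CreMinus, by small steps. Group means were 447 to 496 CPM for Pgam1, 1.48 to 1.82 for the neuronal enolase Eno2 and 319 to 379 for the pyruvate kinase Pkm.

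**Figure D2:**
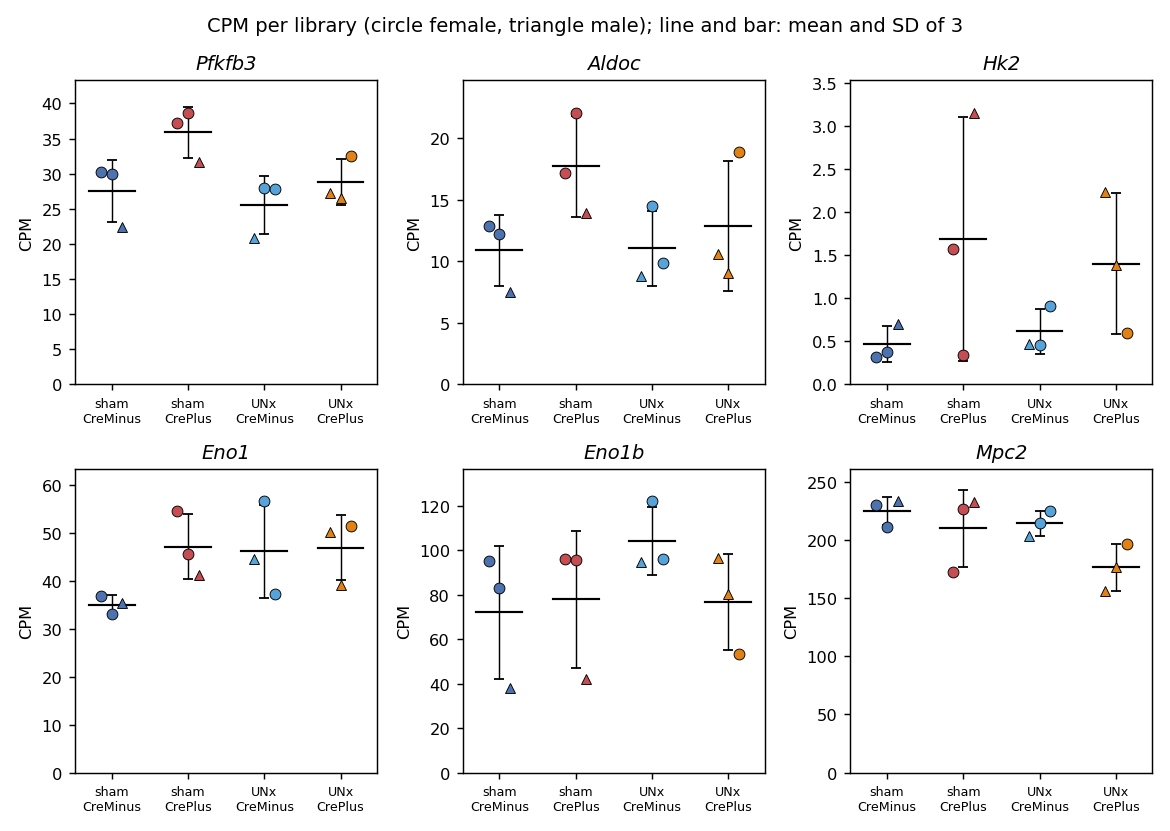
CPM in every library (points, circles for females and triangles for males) with the group mean and SD of 3 libraries (line and bar), for Pfkfb3, Aldoc, Hk2, Eno1, its copy Eno1b and Mpc2. The axis starts at 0, and in Pfkfb3 and Aldoc the male points lie lowest within the groups while CrePlus points lie above CreMinus points of the same sex and surgery.

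Around lactate and the entry of pyruvate into mitochondria, no member passed by Cre. Ldha, which turns pyruvate into lactate, had group means from 673 to 803 CPM, and Slc16a3 from 0.957 to 1.29. Mpc2, a subunit of the mitochondrial pyruvate carrier, was at 230, 211 and 233 CPM in sham CreMinus replicates 1 to 3, 172, 226 and 232 in sham CrePlus, 203, 214 and 225 in UNx CreMinus and 156, 177 and 196 in UNx CrePlus. The 3 UNx CrePlus libraries lay below all UNx CreMinus libraries. This was the only member with an unadjusted p under 0.05 for Cre in UNx kidneys, at a log2 fold change of -0.28 ± 0.13 (adjusted p = 0.468). The summed proximal tubule markers were lowest in the same group, and other marker lists differed there too, as given above. The part of any of these lists in the Mpc2 value was not tested. Its partner subunit Mpc1 had group means from 297 to 322 CPM. Of the kinases that switch off pyruvate dehydrogenase, Pdk2 was at 310, 365 and 325 CPM in sham CreMinus, 451, 384 and 311 in sham CrePlus, 360, 421 and 314 in UNx CreMinus and 344, 288 and 390 in UNx CrePlus, with overlap throughout. Group means were 41.3 to 54.1 CPM for Pdk1 and 43.2 to 53.5 for Pdk3.

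The gluconeogenic genes did not pass in any comparison by Cre or surgery. Pck1 was at 1510, 1940 and 1480 CPM in sham CreMinus replicates 1 to 3, 2470, 1390 and 1500 in sham CrePlus, 2040, 2150 and 1830 in UNx CreMinus and 1320, 1580 and 1890 in UNx CrePlus. Sham CrePlus replicate 1 was the highest library and UNx CrePlus replicate 1 the lowest, and the groups overlapped. Pck1 had a log2 fold change by Cre of 0.12 in sham (95% interval -0.37 to 0.61, and -0.19 without sham CrePlus replicate 1) and of -0.33 in UNx kidneys (95% interval -0.82 to 0.16). G6pc, which frees glucose in the last step, was at 552, 520 and 358 CPM in sham CreMinus, 447, 440 and 280 in sham CrePlus, 605, 554 and 505 in UNx CreMinus and 286, 406 and 533 in UNx CrePlus. Its log2 fold change was -0.29 ± 0.25 in sham kidneys and -0.44 ± 0.25 in UNx kidneys, and in females alone the latter was 0.02. Group means ran from 1150 to 1330 CPM for Fbp1, from 33.8 to 38.1 for the muscle-type Fbp2, from 19.9 to 22.6 for the mitochondrial Pck2 and from 276 to 310 for Slc37a4, which carries glucose 6-phosphate to G6pc.

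In UNx kidneys the comparison by Cre called 0.14% of all genes and none of the 34 (lowest adjusted p = 0.468, and 0 with DESeq2). Mpc2 alone was at an unadjusted p under 0.05, which 10.7% of all genes reached, and alone did not overlap, as 15.8% of all genes did not. The log2 fold change was above 0 in 12 and below 0 in 22 members, with a median of -0.07, and 47.8% of all genes were above 0. In females alone, with 1 UNx CrePlus library left, the median was 0.03, and the UNx CrePlus group holds 2 males and 3 deep libraries against 1 of each in UNx CreMinus. The 5 genes of pyruvate entry into mitochondria lay between -0.39 and -0.02, but Pdk3 turned to 0.26 without UNx CreMinus replicate 1 and Pdk2 to 0.02 without UNx CreMinus replicate 2. Averaged over surgery, 17 members were above and 17 below 0 with a median of 0.00 (49.2% of all genes above 0), and 0 were called against 0.521% of all genes. The 2 members with an unadjusted p under 0.05 were Hk2 and Pfkfb3, against 11.8% of all genes. For the 18 members with a mean of at least 100 CPM the SE was 0.10 to 0.25 within each surgery, and their 95% intervals lay between -0.85 and 0.61 in sham and between -1 and 0.66 in UNx kidneys.

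**Figure D3:**
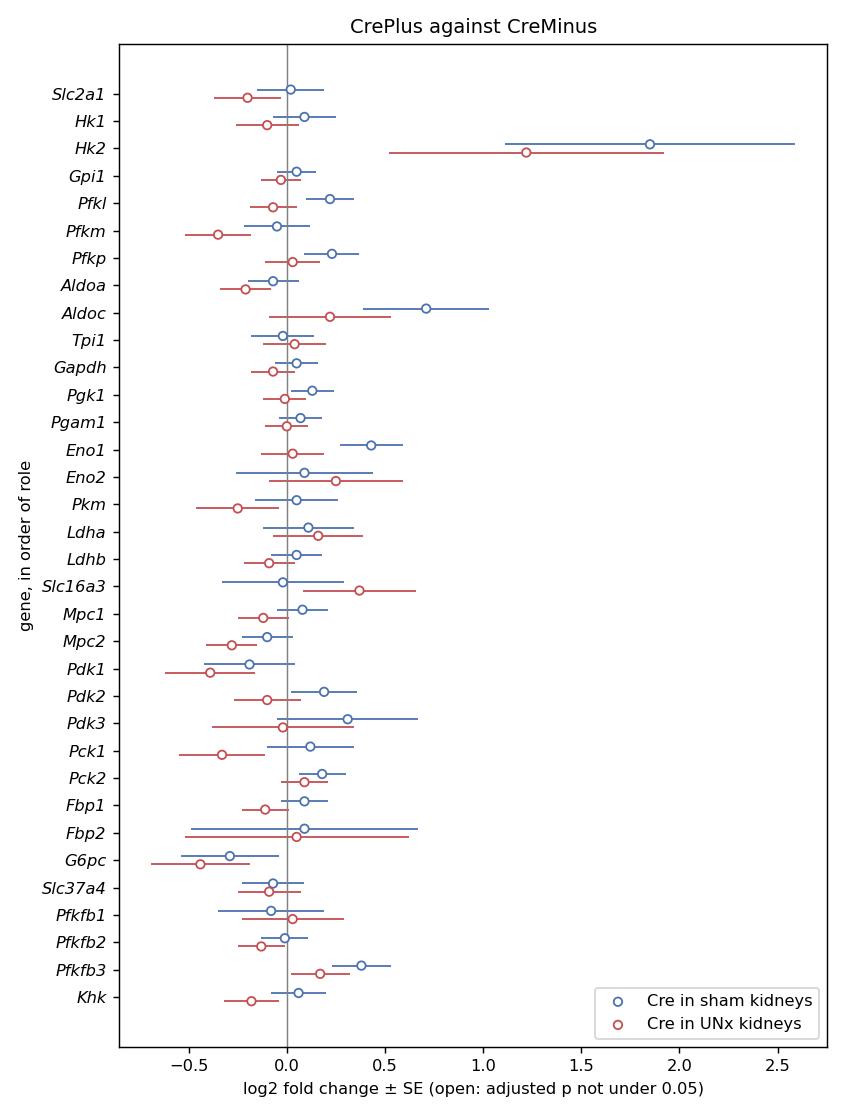
Log2 fold change of CrePlus against CreMinus with its SE for the 34 genes, in order of role, in sham (blue) and UNx (red) kidneys. All points are open because none had an adjusted p under 0.05. Hk2 lies farthest to the right in both, at 1.85 and 1.22, and most other members within 0.5 of 0.

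A term for sex changed this picture for Pfkfb3 and Aldoc. Pfkfb3 makes fructose 2,6-bisphosphate, the strongest activator of phosphofructokinase, and is a known target of hypoxia-inducible factors. Its level was 30.3, 29.9 and 22.4 CPM in sham CreMinus replicates 1 to 3, 37.2, 38.7 and 31.7 in sham CrePlus, 20.8, 28.0 and 27.8 in UNx CreMinus and 27.3, 26.5 and 32.5 in UNx CrePlus. The male libraries were the lowest of their groups in the first 3 groups, and both males lay below the female in UNx CrePlus. Within each of the 4 classes of sex and surgery every CrePlus library was above every CreMinus library for Pfkfb3 and for Aldoc, which held in 3.64% of all genes. The classes are small: the sham males were only replicate 3 of each group. In UNx males replicate 1 was the only CreMinus library, and in UNx females replicate 3 was the only CrePlus library. Aldoc in UNx males was at 10.6 and 9.06 CPM in CrePlus against 8.77 in CreMinus. Without a sex term the log2 fold change of Pfkfb3 was 0.38 ± 0.15 in sham, 0.17 ± 0.15 in UNx kidneys and 0.28 ± 0.11 averaged (adjusted p = 1, 0.737 and 0.360). With it, Pfkfb3 rose by 0.34 ± 0.05 averaged over surgery (adjusted p = 0.00782) and Aldoc by 0.56 ± 0.12 (adjusted p = 0.0390).

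These 2 of 34 members, both higher, stood beside 1.97% of all genes called in the averaged comparison with the sex term. Within sham kidneys the sex-term fit gave 0.39 ± 0.07 for Pfkfb3 and 0.73 ± 0.17 for Aldoc, and within UNx kidneys 0.29 ± 0.07 and 0.39 ± 0.17. None of these 4 passed (adjusted p = 0.102, 0.213, 0.122 and 0.338), in fits that called 0.0668% and 0.748% of all genes. The interaction of Cre and surgery with the sex term was -0.09 ± 0.10 for Pfkfb3 and -0.34 ± 0.24 for Aldoc (adjusted p = 0.997 for both). Pfkfb3 passed in the averaged sex-term fit without each of the 12 libraries in turn (adjusted p = 0.0131 to 0.0491) and with a further term for depth (0.37 ± 0.07, adjusted p = 0.0457). Aldoc passed in 3 of those 12 fits, without sham CrePlus replicate 1, UNx CreMinus replicate 2 or UNx CrePlus replicate 2, and not with the depth term. Depth varied within a group only in UNx CreMinus, where replicate 1 was the only deep library and the only male. The depth term thus rests on that library, and this fit cannot show whether the call of Pfkfb3 holds apart from depth. The other genes of the fructose group, Pfkfb2 and Khk, had group means of 41.1 to 45.6 and 520 to 638 CPM, and Pfkfb1 lay between 0.791 and 1.48 CPM in the 12 libraries.

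Surgery was compared next, since the kidney that remains after UNx grows. In CreMinus kidneys edgeR's quasi-likelihood test called 0 of the 34 genes and 0% of all genes (194 genes, or 1.3%, had an unadjusted p under 0.05, and DESeq2 found 2). The log2 fold change was above 0 in 28 of 34 members with a median of 0.09, and 51.4% of all genes were above 0. Eno1, Pgk1 and Pgam1, all of lower glycolysis, were the members whose UNx libraries lay above every sham library, as did 2.67% of all genes, with 4.86% not overlapping in either direction. Eno1 had 0.40 ± 0.16, Pgk1 0.23 ± 0.11 and Pgam1 0.15 ± 0.11 (adjusted p = 1 for each). With Eno1b added, the Eno1 value was 0.49 ± 0.26. The 7 members of upper glycolysis lay between 0.02 and 0.18 here, but without UNx CreMinus replicate 2 Aldoc was at -0.22, Aldoa at -0.02 and Gpi1 at -0.01, and without UNx CreMinus replicate 1 Tpi1 was at -0.04.

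In CrePlus kidneys the count went the other way: 10 members were above and 24 below 0 for surgery, with a median of -0.09, and 46.3% of all genes were above 0. None was called (lowest adjusted p = 0.725), as for all genes (0%, with 1022 genes, or 6.83%, at an unadjusted p under 0.05 and 10 found by DESeq2). Of the 34, 0 were at an unadjusted p under 0.05 and 0 did not overlap, against 9.78% of all genes. Khk, the fructokinase of the proximal tubule, was at 545, 698 and 672 CPM in sham CrePlus replicates 1 to 3 and at 432, 552 and 576 in UNx CrePlus, against 666, 602 and 566 in sham CreMinus and 610, 562 and 592 in UNx CreMinus. UNx CrePlus replicate 1 was the lowest, and the groups overlapped. Khk had a log2 fold change for surgery of -0.30 ± 0.14 and Pfkfb3 of -0.32 ± 0.15 in CrePlus kidneys (adjusted p = 0.725 and 0.728). Library depth differs between these groups, 3 shallow against 3 deep libraries, so depth and surgery cannot be told apart here.

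The difference between the Cre effects of the 2 surgeries was tested as an interaction, and edgeR's quasi-likelihood test called 0 of 34 members and 0% of all genes (277 genes, or 1.85%, had an unadjusted p under 0.05, and none of the 34 did). The interaction was below 0 in 29 of the 34, with a median of -0.19 on the log2 scale against -0.02 over all genes, of which 45.3% were above 0. The members of smallest p were Eno1 at -0.40 ± 0.23 and Pfkl at -0.29 ± 0.18 (adjusted p = 1 for both). In females alone the median was -0.07. Averaged over Cre status, surgery gave 18 members above and 16 below 0, a median of 0.01 (48.9% of all genes above 0, 5.66% at an unadjusted p under 0.05) and 0 calls (lowest adjusted p = 0.894, 0% of all genes called, 8 genes with DESeq2). Pgk1 had 0.16 ± 0.08 and Pfkfb3 -0.21 ± 0.11 there.

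More of the 34 genes passed by the sex of the mouse than by Cre or surgery. This comparison was added after the data were seen, uses the term for sex within the 4 groups, and rests on 5 male and 7 female libraries. No depth term was fitted for this comparison. Sex ran partly with depth, since the only deep library of UNx CreMinus was its only male. In UNx CrePlus the males, replicates 1 and 2, had mean log2 injury marker levels of 1.39 and 0.84 and the female 0.1. The male was lowest in sham CrePlus (-0.54) and UNx CreMinus (-0.7) and between the females in sham CreMinus (-0.56). The part of depth and injury in the values by sex was not tested. Of the 34 members 11 were called, 3 higher and 8 lower in males, or 32.4%, against 20.4% of all genes called (10.5% higher and 9.89% lower). In 6 members the sexes did not overlap, against 9.43% of all genes. Markers of several kidney cell types moved with sex too. Summed collecting duct markers were at 480 to 828 CPM in males and 871 to 1340 in females, without overlap, and 7 of the 11 listed genes were called lower in males. All 8 podocyte genes were called lower in males, with sums of 414 to 675 against 629 to 843 CPM. In the list of loop and distal tubule markers 4 of 10 genes were called lower, and in that of the proximal tubule 5 of 12 were called lower and 2 higher. No gene of these lists was at 0 in every library, and the part of these cell types in the values by sex was not tested.

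Higher in males were Ldha, Pdk3 and Tpi1. Ldha was at 569, 607 and 710 CPM as the lowest, median and highest of the females, and at 779, 915 and 931 of the males. Tpi1 was at 658, 758 and 855 CPM in females and 886, 943 and 972 in males in the same order. In both genes every male library lay above every female library. Ldha rose by 0.48 ± 0.08 (adjusted p = 0.00221) and Tpi1 by 0.28 ± 0.08 (adjusted p = 0.0295), and Tpi1 was not called in 6 of the 12 fits that left out 1 library. Pdk3, an X-linked kinase that turns off pyruvate dehydrogenase, was at 32.3, 39.1 and 44.0 CPM in females and 39.5, 66.8 and 77.8 in males. Its lowest male, UNx CrePlus replicate 1, was inside the female range and the other 4 males were above it. Pdk3 rose by 0.76 ± 0.13 (adjusted p = 0.00265), and lay between 0.66 and 0.84 when each library was left out in turn, highest without that male.

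Lower in males were Slc2a1, Hk1, Pfkm, Aldoc, Pkm, Pdk1, Fbp2 and Pfkfb3. By role these were 2 of the 3 genes of glucose entry, 2 of 7 of upper and 1 of 6 of lower glycolysis, 1 of 5 of pyruvate entry into mitochondria, 1 of 6 of gluconeogenesis and 1 of 4 of the fructose group. Fbp2 was at 34.3, 47.8 and 58.2 CPM as the lowest, median and highest of the females and at 14.2, 18.2 and 36.8 of the males. UNx CrePlus replicate 1 was again the male inside the female range. Fbp2 fell by 1.33 ± 0.22 (adjusted p = 0.00159), with values from -1.5 to -1.2 when each library was left out in turn. Skeletal muscle markers, which include muscle actin and myosins, summed to 3.07 to 8.18 CPM in females and 0.795 to 1.97 in males, highest among males in UNx CrePlus replicate 1. Only 2 of the 7 listed muscle genes passed the filter on low counts, and 1 of these was called lower in males. The part of these markers in the Fbp2 value was not tested.

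Pkm was at 350, 395 and 439 CPM in females and 250, 303 and 320 in males, and Pdk1 at 51.1, 55.7 and 57.5 in females and 31.2, 34.1 and 49.2 in males. In both genes, and in Slc2a1 and Hk1, no male library reached the lowest female. Pkm fell by 0.42 ± 0.08 and Pdk1 by 0.47 ± 0.10 (adjusted p = 0.00520 and 0.00722). Slc2a1 fell by 0.38 ± 0.07 and Hk1 by 0.31 ± 0.07 (adjusted p = 0.00278 and 0.00953). Aldoc fell by 0.67 ± 0.12, Pfkfb3 by 0.34 ± 0.05 and Pfkm by 0.32 ± 0.08 (adjusted p = 0.00363, 0.00129 and 0.0132). Without sham CrePlus replicate 3 neither Hk1 nor Pfkm was called, and without UNx CrePlus replicate 3 Pfkm was not. Gapdh, Pgk1, Pgam1, Gpi1, Fbp1 and Khk, between -0.06 and 0.05 on the log2 scale, did not pass. Pck2 and G6pc were just short of the threshold at -0.21 ± 0.07 and -0.41 ± 0.14 (adjusted p = 0.0503 and 0.0590), and DESeq2 called G6pc. Hk2, at 1.06 ± 0.44 (adjusted p = 0.115), passed in 1 of the 12 fits that left out a library, without UNx CreMinus replicate 1 (adjusted p = 0.0418). Pfkl passed in 1 of these fits, and Pck2 and G6pc each in 2.

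**Figure D4:**
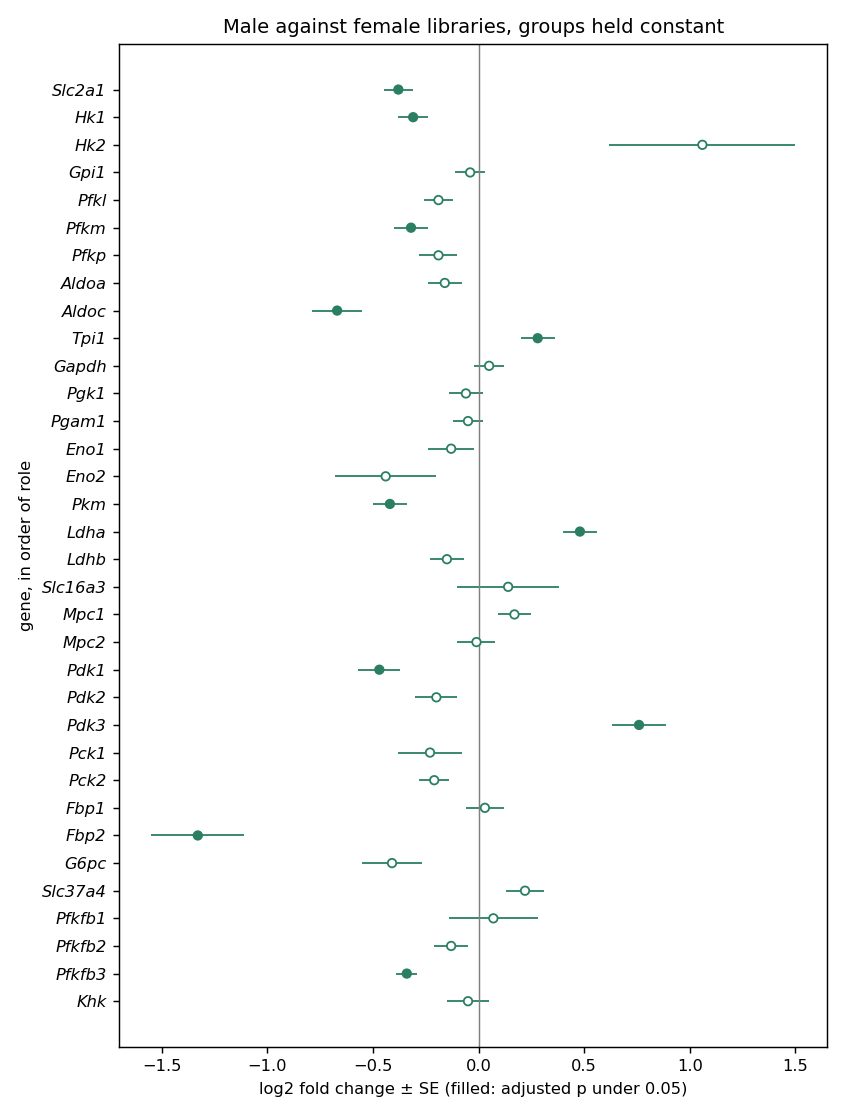
Log2 fold change of male against female libraries with its SE for the 34 genes, from the fit with 4 groups and a term for sex. Filled points have an adjusted p under 0.05: Ldha, Pdk3 and Tpi1 lie to the right of 0, and 8 members to the left, Fbp2 farthest at -1.33.

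**Figure D5:**
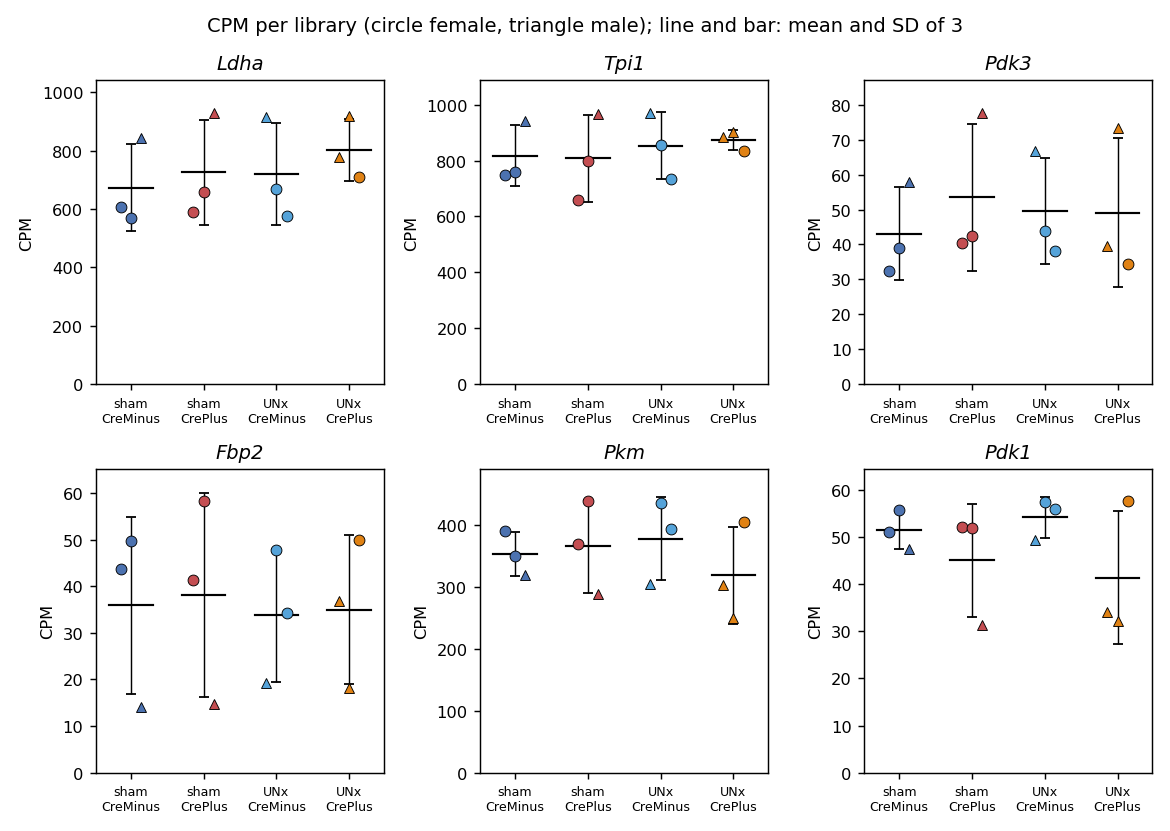
CPM in every library for Ldha, Tpi1, Pdk3, Fbp2, Pkm and Pdk1, with circles for females, triangles for males and the group mean and SD of 3 libraries. Triangles lie above all circles for Ldha and Tpi1 and below all circles for Pkm and Pdk1, and the triangle of UNx CrePlus replicate 1 lies among the circles for Pdk3 and Fbp2.

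Sequence before a RefSeq transcription start is shown for the genes called with Cre or most changed with sex, because hypoxia-inducible factors and Myc act on such stretches. The letters searched on both strands were ACGTG and GCGTG, the core of the hypoxia response element, and CACGTG, the E-box of Myc and its relatives, which contains ACGTG. In the 250 bases before a RefSeq start (GRCm38.p6) the hypoxia core was present in 27 of the 34 genes, or 79.4%, against 41.5% of 27025 genes. The E-box was present in 7 of 34, or 20.6%, against 6.86%. The members' windows were richer in G and C, with a median of 58.8% against 52.4%, and numbered 1.65 per gene against 1.22, and the part of either in these shares was not tested. AGAACA, a half-site of the androgen receptor, was present in 8 of 34 members (23.5%) against 18.2%. Capitals below mark the hypoxia core on either strand, and sequences read 5′ to 3′ on the strand of the gene.
Pfkfb3, 30 bases around its core, chr2:11553972-11554001, minus strand: ctccgcgccgtgACGTGccaagctgtgacc
Aldoc, 30 bases around its core, chr11:78323011-78323040, plus strand: ccacctctgaggGCGTGgccttaccctaga
Ldha, chr7:46845554-46845803, plus strand: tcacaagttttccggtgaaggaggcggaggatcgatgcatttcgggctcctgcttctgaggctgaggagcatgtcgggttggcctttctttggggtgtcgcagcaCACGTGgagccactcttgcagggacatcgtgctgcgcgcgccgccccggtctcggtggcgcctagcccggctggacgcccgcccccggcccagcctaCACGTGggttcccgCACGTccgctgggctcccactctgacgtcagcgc
Pdk3, chrX:93832202-93832400, minus strand: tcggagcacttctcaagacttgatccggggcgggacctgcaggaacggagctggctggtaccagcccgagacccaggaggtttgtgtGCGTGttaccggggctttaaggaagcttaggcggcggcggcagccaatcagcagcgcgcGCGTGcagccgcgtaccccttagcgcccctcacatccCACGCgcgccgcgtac
Fbp2, chr13:62858423-62858650, minus strand: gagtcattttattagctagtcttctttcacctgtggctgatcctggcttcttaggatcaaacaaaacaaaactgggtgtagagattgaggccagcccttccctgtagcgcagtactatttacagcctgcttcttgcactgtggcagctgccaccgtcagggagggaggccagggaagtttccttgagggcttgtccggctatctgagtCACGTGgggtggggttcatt

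Before the start shown, Ldha carried 3 capital stretches, of which 2 are complete E-boxes, and Pdk3 3 stretches without one. A further listed start of Ldha has 1 core and 0 E-boxes. Fbp2 had a single stretch that is an E-box. Before the start shown, Pfkfb3 and Aldoc each had 1 core in the 250 bases. Of these bases, 148 in Pfkfb3 and 105 in Aldoc lie in GENCODE exons of the gene itself. In neither gene did the core lie ahead of the first exon base, so these 2 stretches are not shown as sequence outside exons. Pfkfb3 has a further listed start, with 3 cores of which 1 E-box is part, and is thereby among the 7 genes with an E-box. Among the genes shown, those higher and those lower in males both held the core. Tpi1, also higher in males, is not among the 27 genes with the core, and every member called lower in males is. A match of letters is no measured binding.

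Other genes of the pathway were described from a list of 44, of which 42 were in the table and 39 were tested. None was called for Cre in sham or in UNx kidneys, or averaged, against 0.0267%, 0.14% and 0.521% of all genes. In UNx kidneys 11 of 39 were above 0, against 47.8% of all genes. With the sex term 1 was called in the averaged comparison, against 1.97% of all genes: Slc2a9, a transporter of urate and sugar, fell by 0.57 ± 0.12 (adjusted p = 0.0334, and -0.61 ± 0.17 with adjusted p = 0.188 without the term). Slc5a2, the glucose transporter of the early proximal tubule, had the smallest p of the list for surgery averaged over Cre status, at 0.36 ± 0.14 (adjusted p = 0.875). Among 16 regulators of glycolysis, Txnip, which restrains glucose uptake, was the 1 called. It was at 802, 698 and 505 CPM in sham CreMinus replicates 1 to 3, 296, 439 and 283 in sham CrePlus, 543, 652 and 619 in UNx CreMinus and 350, 452 and 405 in UNx CrePlus. All 6 CrePlus libraries lay below all 6 CreMinus libraries, a split that was not counted over all genes. Txnip fell by 0.78 ± 0.15 averaged over surgery (adjusted p = 0.0479, just under the threshold). That comparison called 0.521% of all genes, and 25 to 136 genes when 1 library was left out. Txnip was not followed in those fits. None of 13 regulators of gluconeogenesis and none of 10 hypoxia targets outside glycolysis was called by Cre or surgery, with Irs2 at 0.31 ± 0.18 and Higd1a at -0.19 ± 0.07 as their smallest p for Cre averaged over surgery.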

How the data were processed

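The authors deposited whole read counts for each gene. The tools named are cutadapt 1.11, FastQC 0.11.5, DESeq2 and HTSeq, with builds GRCm38 and mm10, per the submitters' processing notes. For aligner, annotation and strand, the setting is not given in the sources used here. Per the labels' protocols, libraries were made with SMART-Seq v4, which does not mark strand. The authors also deposited log2 fold changes, standard errors, test score values and p-values; in their tables no member had an adjusted p under 0.05. Groups came from the labels, which call each sample separate, so p-values measure the spread between these libraries. Counts were tested with edgeR 4.0.16 (R 4.3.3): filterByExpr, TMM factors of 0.925 to 1.05, 4 group means over 12 libraries, quasi-likelihood test, Benjamini-Hochberg adjustment over 14970 genes, call under 0.05, SE as the log2 fold change over the square root of F. Rows of 5 repeated symbols, identical in every library, were merged. CPM used TMM-scaled library sizes, and lengths were GENCODE M21 exons. Promoter sequences are from RefSeq, shown outside the gene's GENCODE exons or as 30 bases around a core. Scripts were tested on simulated counts. Alternatives were RLE scaling, no filter, DESeq2 1.42.0, terms for sex and depth, only the groups compared, females only and leaving out each library. Members given by library were those of the 2 smallest p in a comparison or the highest mean of a role. Members and lists were chosen with earlier results of these data known.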

Additional observations from a re-analysis of the deposited data

How the results depend on the processing

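No member was called in the 7 comparisons by Cre and surgery under RLE scaling, without the filter, with DESeq2, with only the groups compared, in females only, without both libraries of highest injury level or without any 1 library; the exceptions were the averaged Cre comparison with a sex term (2 members called, 1 with sex and depth terms, and 1 to 2 when a library was also left out of the sex-term fit, against 0 without the term). No paired analysis was possible because the labels give no replicate numbers. Of the values given for single genes, those that reversed included Hk2 (-0.18) and G6pc (0.02) for Cre in UNx kidneys in females only. Aldoc reversed there when a library was left out (-0.16 without UNx CrePlus replicate 3, up to 0.47). Pck1 reversed for Cre in sham kidneys (-0.19 to 0.26 when a library was left out, -0.19 without both libraries of highest injury level). Leaving out a library also turned Pdk3 and Pdk2 for Cre in UNx kidneys, and Aldoc, Aldoa, Gpi1 and Tpi1 for surgery in CreMinus kidneys, as given above. The cause was not tested. Over all 34 members, the sign turned in at least 1 of the 12 fits without 1 library in 18 members for Cre in sham, 15 in UNx and 10 averaged, in 17, 16 and 14 for surgery in CreMinus, in CrePlus and averaged, in 11 for the interaction and in 6 by sex. The members' median for Cre in UNx kidneys was 0.03 and for the interaction -0.07 in females only. The number of all genes called for Cre in sham kidneys was 4, and 42 with DESeq2, 10 with a sex term, 8 with sex and depth terms, 7 in females only, and 0 with only the groups compared or without both libraries of highest injury level. In UNx kidneys it was 21, and 13 with RLE, 188 with DESeq2, 112 with a sex term, 8 with sex and depth terms, 9 with only the groups compared, 5 in females only and 7 without the libraries of highest injury level. Averaged over surgery it was 78, and 385, 295, 27 and 15 with DESeq2, a sex term, females only and without those libraries. DESeq2 called 2, 10 and 8 genes for surgery in CreMinus, in CrePlus and averaged, where edgeR called 0. Leaving out each library in turn gave 0 to 3 genes for Cre in sham, 6 (without UNx CreMinus replicate 3) to 48 (without UNx CrePlus replicate 3) in UNx, 25 (without sham CreMinus replicate 1) to 136 (without UNx CrePlus replicate 3) averaged, 103 to 402 averaged with a sex term, 0 to 14 for surgery averaged, and 1458 to 3289 genes and 8 to 12 members by sex. The fit in females only leaves 1 library in UNx CrePlus, assumed to vary like the others. Depth limits Hk2, Eno2, Pfkfb1 and Slc16a3 most, all at means under 2 CPM, and Hk2 had the largest SE of the members (0.74 in sham kidneys). The comparison by sex and the fits without the libraries of highest injury level were chosen after the data were seen.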
